A study of Mus musculus with 6 samples.

Results

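The lysosome breaks down proteins, glycans and lipids, and 36 genes of its hydrolases, its membrane proteins and the proton pump that acidifies it were followed here in the mouse submandibular gland, a major salivary gland. They were chosen by gene symbol for their known roles and make up 36 of the 23366 rows of the deposited table. The samples were epithelial cells isolated from the gland of mice aged 12 weeks. The knockout (KO) group was 3 libraries from p63 knockout mice, and the comparison group was 3 libraries from wild-type (WT) mice. The protein p63 (gene Trp63) is known as a regulator of basal cells in stratified and glandular epithelia. The labels name neither the deleted part of the gene nor a Cre driver, do not say how many mice went into a library, and give no treatment. The study's title places the comparison in the question of how p63 keeps salivary progenitor cells able to divide. Values are TPM, a transcript level corrected for gene length and library size, so that levels can be compared between genes.

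Lysosomal hydrolases are made in the endoplasmic reticulum, tagged with mannose 6-phosphate and carried to the lysosome, where they work at acid pH. The acid is supplied by the V-ATPase, a rotary pump whose V1 sector splits ATP and whose membrane V0 sector carries protons. Many of these genes carry an E-box, a short palindrome to which the transcription factor TFEB and its relatives bind, and TFEB is held in the cytoplasm by the kinase mTORC1 while nutrients are plentiful. In salivary acinar and duct cells lysosomes also take up old secretory granules and organelles by autophagy, the delivery of cell contents to the lysosome.

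The promoters of Ctsd, Ctsl, Gaa and Lamp1 are shown because Ctsd was the most abundant member, Ctsl and Gaa differed between the KO libraries, and Lamp1 holds the most copies of the E-box core CACGTG. Each window is given 5′ to 3′ on the strand of the gene, from 250 bases before the transcription start to 50 bases after it, from RefSeq on GRCm38.p6, with CACGTG in capitals.
Ctsd, chr7:142387778-142388077, minus strand: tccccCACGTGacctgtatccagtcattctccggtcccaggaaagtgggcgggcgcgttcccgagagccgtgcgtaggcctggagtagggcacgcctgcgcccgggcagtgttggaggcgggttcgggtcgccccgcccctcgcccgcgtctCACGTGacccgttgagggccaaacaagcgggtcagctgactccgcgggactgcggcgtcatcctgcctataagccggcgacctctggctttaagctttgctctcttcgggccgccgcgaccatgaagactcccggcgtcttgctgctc
Ctsl, chr13:64370471-64370770, minus strand: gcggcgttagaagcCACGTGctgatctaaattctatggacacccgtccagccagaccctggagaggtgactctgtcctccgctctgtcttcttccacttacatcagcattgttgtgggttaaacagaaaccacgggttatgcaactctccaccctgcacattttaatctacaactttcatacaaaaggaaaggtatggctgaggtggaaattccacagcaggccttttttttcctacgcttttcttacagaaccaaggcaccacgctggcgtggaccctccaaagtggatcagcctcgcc
Gaa, chr11:119267713-119268012, plus strand: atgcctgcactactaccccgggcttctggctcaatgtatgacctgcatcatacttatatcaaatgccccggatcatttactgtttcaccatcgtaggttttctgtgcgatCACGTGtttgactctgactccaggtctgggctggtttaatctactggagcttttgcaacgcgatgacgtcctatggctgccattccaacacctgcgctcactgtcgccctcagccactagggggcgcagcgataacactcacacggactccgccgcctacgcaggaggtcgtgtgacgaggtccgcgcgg
Lamp1, chr8:13158911-13159210, plus strand: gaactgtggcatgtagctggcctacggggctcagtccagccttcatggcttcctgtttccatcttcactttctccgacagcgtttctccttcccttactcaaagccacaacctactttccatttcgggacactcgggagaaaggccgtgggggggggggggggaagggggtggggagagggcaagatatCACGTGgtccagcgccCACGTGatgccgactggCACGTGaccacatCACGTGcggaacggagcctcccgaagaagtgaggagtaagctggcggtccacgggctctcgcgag
Counted from the start site, the cores of Ctsd began at -245 and -98, that of Ctsl at -236, that of Gaa at -140, and those of Lamp1 at -61, -45, -28 and -15. CACGTG reads the same on both strands, so a search of either strand finds the same sites. Promoter windows were found for 30 of the 36 members by symbol. At least 1 window of 12 of these members held CACGTG (40.0%), against 1027 of 8397 tested genes with a window (12.2%) and 2187 of all 27025 genes with a window (8.09%). Counted by window, 12 of 36 member windows held it (33.3%), against 7.15% of all windows. It stood more than once in 6 members, which were Ctsa, Ctsd, Gla, Lamp1, Mcoln1 and Atp6v0b, and once in Ctsl, Gaa, Glb1, Naglu, Atp6v0d1 and Atp6v1a. A match to these letters is a description of the window and no evidence of binding.

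All 6 libraries held 10634 to 11235 genes at 1 TPM or more, and sequencing depth is unknown because TPM keeps no record of it. Products of the granular convoluted tubule and of acinar cells were abundant in all libraries, and 18 tubule genes summed to 29991 to 76238 TPM in the knockout and 197873 to 233165 TPM in wild type. Trp63 stood at 1.59, 0.816 and 1.76 TPM in KO libraries 1, 2 and 3 and at 3.48, 1.85 and 3.68 TPM in WT libraries 1, 2 and 3. KO library 3 stood apart from the other KO libraries. On log2(TPM + 1) over all genes tested it correlated at 0.951 to 0.963 with the WT libraries and at 0.896 and 0.893 with KO libraries 1 and 2, which correlated at 0.958 with each other. Its 50 most abundant genes took 80.0% of the TPM, against 68.8 to 75.8% in the other libraries. In KO library 3 all 8 tested basal and myoepithelial markers, Trp63 among them, were below every WT library, as were 66.9% of all genes tested. For Trp63 the margin was small, at 1.76 TPM against 1.85 TPM in WT library 2. It was wider for Krt14, at 11.6 TPM in KO library 3 against 33.9 to 42.7 TPM in wild type. For Cnn1 the values were 22.6 TPM in KO library 3 and 61.8 to 69.8 TPM in wild type. Whether the library carries the wrong label or comes from a less complete knockout was not tested, and either would change what a value over 3 KO libraries means. The main results are therefore given for all libraries and again without KO library 3, which leaves 2 KO libraries against 3 WT libraries. That library was singled out for its likeness to wild type, so leaving it out widens the group difference by the choice itself. Adjusted p-values and calls from fits without it, under any scaling, are therefore descriptive and lend a difference no support.

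Of the 36 members, 35 reached 1 TPM in every library and were tested, and Atp6v0c, the gene of the main subunit of the proteolipid ring, was listed at 0 in 5 of the 6 libraries and at 0.101 TPM in WT library 1. The annotation and strand setting behind the counts are not given in the sources used here, so this 0 is not read as absence of the transcript. Together the 36 members took 2516, 2285 and 1501 TPM in KO libraries 1, 2 and 3 and 2544, 2261 and 2430 TPM in the WT libraries. On the TPM scale KO libraries 1 and 2 thus lay within the wild-type range, and KO library 3 lay below it. A sum of TPM depends on the share that the most abundant genes leave. The 50 most abundant genes took 68.8, 70.3 and 80.0% in KO libraries 1, 2 and 3. In WT libraries 1, 2 and 3 they took 72.8, 75.8 and 75.3%. The sums were not rescaled for this, so the places of the KO libraries relative to wild type are given for the TPM scale only. A lower level in these preparations could mean fewer cells of a type that holds much of a transcript or less of it per cell, and RNA from bulk samples cannot tell these apart. In limma's test on log2(TPM + 1), with Benjamini-Hochberg adjustment over all 11268 genes tested, 0 of 35 members passed at an adjusted p of 0.05, where 44 of all genes passed (0.39%, with 0.071% higher and 0.319% lower). At an unadjusted p under 0.05 there were 6 members (17.1%) and 15.4% of all genes. The 6 were Ctsb, Ctsd, Ctsl, Hexa, Lipa and Atp6ap1. The members' median log2 fold change was -0.18, with 14 positive and 21 negative, and the median of all genes tested was 0.09. Rescaled without the 50 most abundant genes, these medians were -0.25 and 0.03. For 7 members every KO library lay below every WT library (20%, against 15.6% of all genes), and for 0 members every KO library lay above (against 5.42%).

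**Figure D1:**
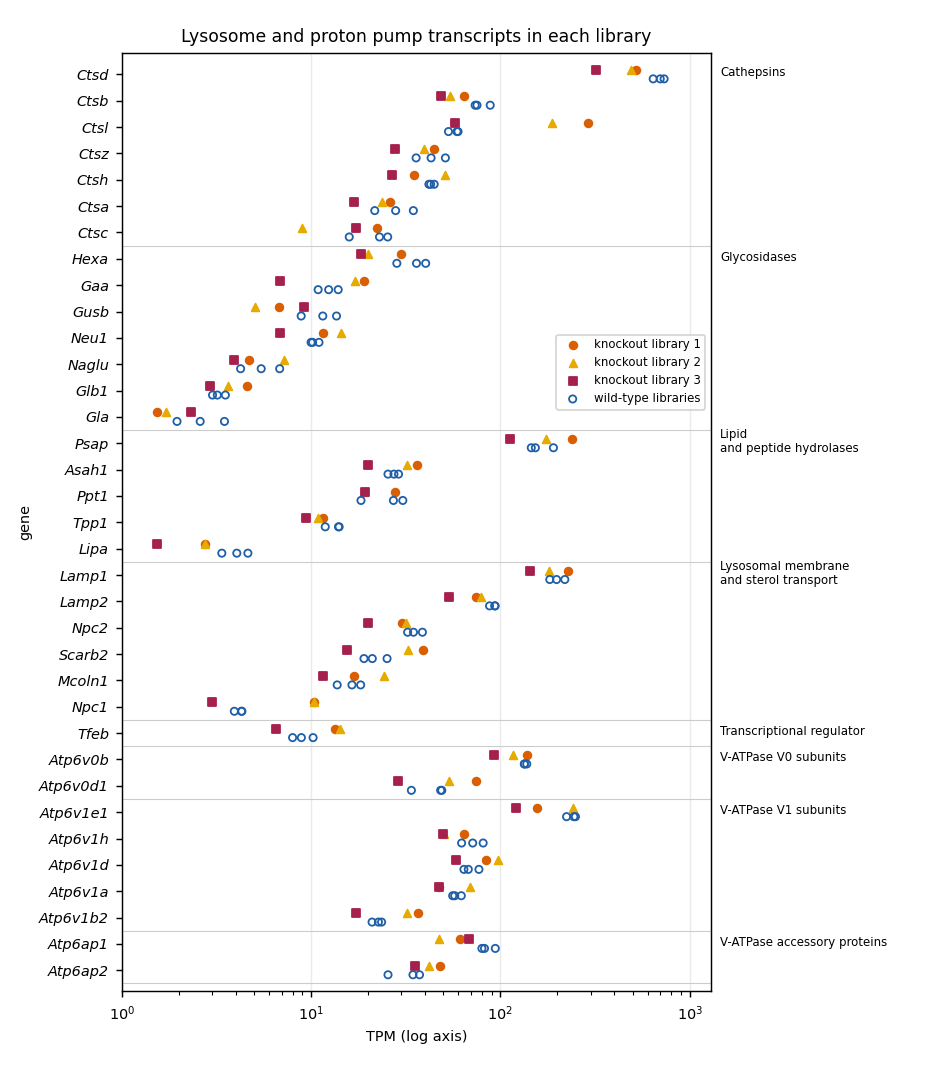
TPM of the 35 tested members in each library on a log axis, grouped by role and ordered within a role by the wild-type mean. Filled symbols are KO libraries 1 to 3 and open circles the 3 WT libraries. The squares of KO library 3 are to the left of the open circles for most genes, while KO libraries 1 and 2 lie on either side of them.

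Within the knockout group the members differed by library, as did all genes tested. Relative to the wild-type mean, the median over the members was 0.06 in KO library 1, 0.02 in KO library 2 and -0.45 in KO library 3 on the log2 scale. The median over all genes tested was 0.27, 0.24 and -0.29 in the same libraries, so the members' median lay 0.21, 0.22 and 0.16 below that of all genes (differences of -0.21, -0.22 and -0.16). In KO library 3, 29 of 35 members lay below every WT library (82.9%, against 66.9% of all genes) and 0 lay above (against 9.52%). KO library 1 had 15 members above every WT library (42.9%, against 56.5% of all genes) and 12 below (34.3%, against 26.7%). KO library 2 had 16 above (45.7%, against 55.2%) and 14 below (40%, against 27.9%). Ctsl and Npc1 stood highest above the wild-type mean in KO libraries 1 and 2.

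**Figure D2:**
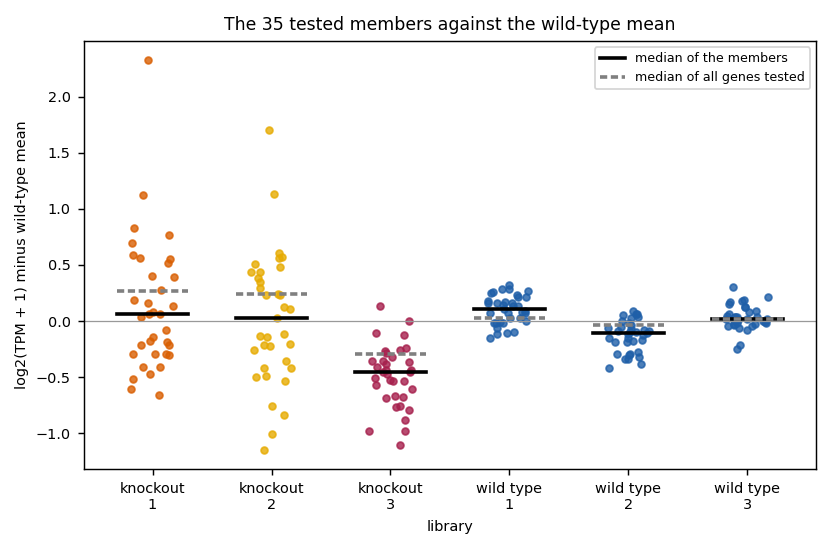
Difference of log2(TPM + 1) from the wild-type mean for the 35 tested members in each library, 1 point per gene, with the median of the members as a black bar and that of all genes tested as a dashed grey bar. KO library 3 has a members' median of -0.45, and in each KO library the black bar lies below the grey one.

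Without KO library 3, 6 members were called higher in the knockout (17.1%, against 33.8% of all genes) and 3 lower (8.57%, against 11.7%). Ctsl, Npc1, Scarb2, Atp6v1b2, Tfeb and Gaa were the members called higher, and Gusb, Atp6ap1 and Ctsd those called lower. Because that library was left out for its likeness to wild type, these calls cannot test a knockout effect. Over all genes 5127 were called without it, against 44 with all libraries and 0 to 16 with any other library left out. Without overlap, 12 members were higher (34.3%, against 47.3% of all genes) and 9 lower (25.7%, against 19.8%). The median log2 fold change was -0.03 for the members and 0.26 for all genes. These counts depended on the scaling, because the other scalings brought the median of all genes to 0.03 (median-of-ratios), -0.0015 (quantile) and 0.04 (rescaling without the 50 most abundant genes). Under these scalings 2, 2 and 3 members were called higher (against 22%, 19.2% and 21% of all genes), and 11 were called lower each time (against 19.2%, 20.4% and 18.9%). Array weights on all 6 libraries called 5 members higher (against 30.9% of all genes) and 4 lower (against 11.9%). In both directions together 9 members were called with array weights (against 42.8% of all genes) and 9 without KO library 3 (against 45.5%). Under the 3 other scalings without KO library 3 the members called numbered 13, 13 and 14 (against 41.2%, 39.6% and 39.9%). At an unadjusted p under 0.05 there were 14 members without KO library 3 (against 54% of all genes). Under all 4 scalings the same 2 members, Ctsl and Npc1, were called higher and the same 3, Ctsd, Gusb and Atp6ap1, were called lower. Gaa, Tfeb and Atp6v1b2 passed as higher under the TPM scaling only, and Scarb2 passed also in the rescaling without the 50 most abundant genes.

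**Figure D3:**
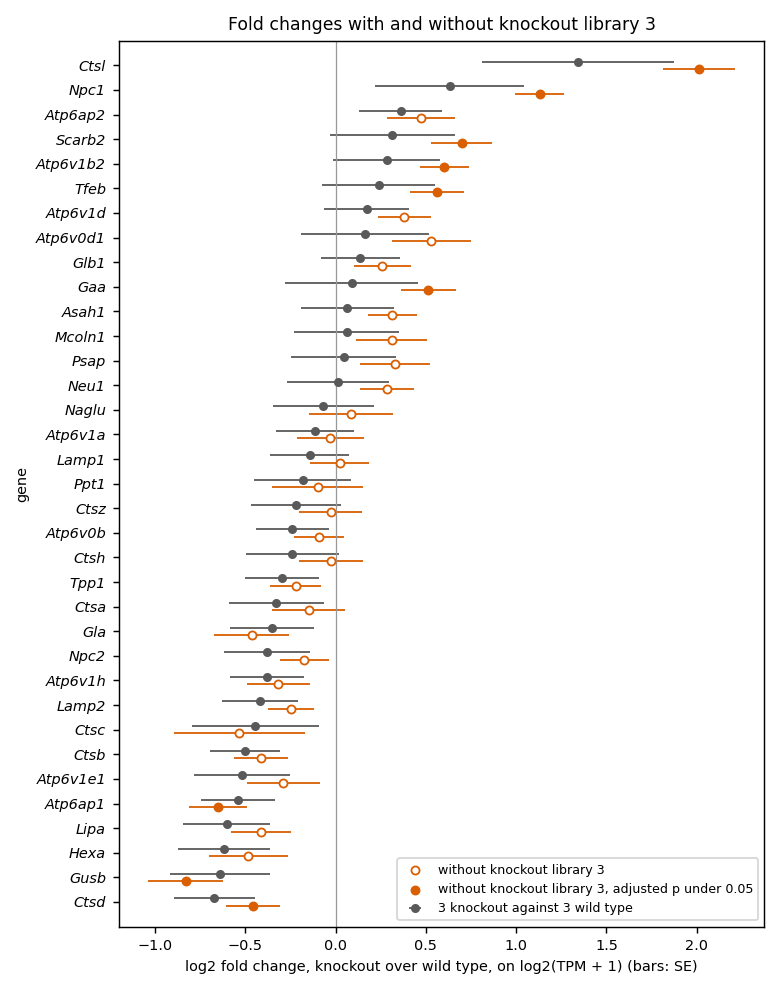
Log2 fold change of each tested member, knockout over wild type, on log2(TPM + 1) with its SE, in all libraries (grey) and without KO library 3 (orange, filled where the adjusted p was under 0.05). Ctsl has the highest estimate in both fits, 1.34 and 2.01, and no grey point passed the test.

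The cathepsins are the proteases of the lysosome. Ctsd, an aspartic protease, was the most abundant member and ranked 54 of the 11268 genes tested by its wild-type mean. It measured 517, 487 and 321 TPM across KO libraries, against 732, 641 and 698 TPM across WT libraries. Every KO library lay below every WT library (442 ± 106 against 690 ± 46.1 TPM, SD, n = 3 each). The log2 fold change of KO over WT, here on log2(TPM + 1), was -0.67 (SE 0.23, adjusted p = 0.23 by limma), and without KO library 3 it was -0.46 (SE 0.15, adjusted p = 0.042). Ctsb, a cysteine protease, measured 64.0, 54.2 and 48.8 TPM across KO libraries, against 88.3, 73.6 and 75.2 TPM across WT libraries, also without overlap. The estimate on the log2 scale was -0.50 (SE 0.20, adjusted p = 0.29), and without KO library 3 it was -0.41 (adjusted p = 0.060).

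Ctsl, a cysteine protease of the same papain family as Ctsb, went the other way in part of the KO libraries, and its values were chosen for print after they were seen. It measured 290.3, 188 and 57.4 TPM across KO libraries, against 53.2, 59.7 and 59.0 TPM across WT libraries. KO libraries 1 and 2 were above the whole wild-type range and KO library 3 was inside it. The log2 ratio of KO to WT was 1.34 (SE 0.53, adjusted p = 0.29) in all libraries. Without KO library 3 it was 2.01 (SE 0.20, adjusted p = 0.00073), and under the other scalings it lay between 1.75 and 1.84. The ratio of Ctsl to Ctsb within a library does not depend on scaling. It was 4.54, 3.47 and 1.18 in the KO libraries and 0.602, 0.812 and 0.784 in the WT libraries. All KO libraries were higher, KO library 3 included (3.06 ± 1.72 against 0.733 ± 0.114, SD, n = 3 each). An exact two-sided permutation test of the log2 ratio gave p = 0.1, the smallest that 3 libraries against 3 allow. The ratio was chosen after its values were seen, so this p-value lends the difference no support.

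The other cathepsins overlapped between the groups. Ctsc, dipeptidyl peptidase I, which activates granule proteases of leukocytes, was the least abundant cathepsin, at 22.3, 8.95 and 17.4 TPM across KO libraries, against 25.4, 15.9 and 23.0 TPM across WT libraries. Its lowest value was that of KO library 2. Ctsa, a carboxypeptidase that also protects Neu1 and Glb1, averaged 22.2 ± 4.79 TPM over KO libraries and 28.1 ± 6.498 TPM over WT libraries. Ctsh, an aminopeptidase, averaged 37.6 ± 12.3 and 43.1 ± 1.41 TPM in knockout and wild type, and Ctsz, a carboxypeptidase, 37.4 ± 8.64 and 43.4 ± 7.68 TPM (SD, n = 3 each). Their log2 fold changes lay between -0.44 and -0.22, with adjusted p between 0.52 and 0.64. As a group the 7 cathepsins summed to 999.8, 853 and 516 TPM across KO libraries, against 1027, 899 and 961 TPM across WT libraries.

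The glycosidases cut sugars from glycoproteins, glycolipids and glycogen, and they were less abundant than the cathepsins. The 7 summed to 77.8, 69.2 and 50.5 TPM across KO libraries, against 91.5, 67.4 and 82.6 TPM across WT libraries. Hexa, the alpha subunit of beta-hexosaminidase, was the most abundant, at 29.7, 20.1 and 18.3 TPM across KO libraries, against 40.3, 28.4 and 36.05 TPM across WT libraries. The groups overlapped only between KO library 1 and WT library 2 (log2 change -0.62, SE 0.25, adjusted p = 0.31). Gla, alpha-galactosidase A, was the least abundant, at 1.54, 1.72 and 2.33 TPM across KO libraries, against 2.60, 1.96 and 3.49 TPM across WT libraries. KO library 3 was within the wild-type range for Gla.

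Gusb, beta-glucuronidase, measured 6.74, 5.07 and 9.19 TPM across KO libraries, against 13.6, 8.87 and 11.5 TPM across WT libraries. Here KO library 3 was the highest of the KO libraries and just above the lowest WT library. The log2 ratio of KO to WT was -0.64 (SE 0.28, adjusted p = 0.33), and without KO library 3 Gusb fell by 0.83 on the log2 scale (SE 0.21, adjusted p = 0.016). Gaa, which digests glycogen, measured 19.1, 17.1 and 6.89 TPM across KO libraries, against 13.9, 10.9 and 12.4 TPM across WT libraries. KO libraries 1 and 2 lay above and KO library 3 below the wild-type range, and the log2 fold change was 0.09 in all libraries (adjusted p = 0.91) and 0.51 without KO library 3 (SE 0.15, adjusted p = 0.030). Under the other scalings without that library it was 0.09 to 0.28 (adjusted p = 0.16 to 0.62), and under quantile normalization of all libraries it was -0.09. Glb1, beta-galactosidase, Neu1, a sialidase, and Naglu, which degrades heparan sulfate, had log2 fold changes of 0.14, 0.01 and -0.07 (adjusted p = 0.75, 0.98 and 0.91). Neu1 was negative under each of the 3 other scalings of all libraries, and Naglu was positive without KO library 3.

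The remaining soluble hydrolases and their helper act on lipids and peptides. Psap, the precursor of the saposins that present lipids to hydrolases, was the most abundant, at 238, 174 and 112 TPM across KO libraries, against 191, 146 and 153 TPM across WT libraries. Its highest and lowest values were both KO libraries. Lipa, the acid lipase that frees cholesterol from its esters, was the least abundant, at 2.76, 2.74 and 1.53 TPM across KO libraries, against 4.64, 3.38 and 4.05 TPM across WT libraries. Its groups did not overlap (log2 change -0.60, SE 0.24, adjusted p = 0.30), and the value without KO library 3 was -0.41 (adjusted p = 0.080). Tpp1, a tripeptidyl peptidase, measured 11.6, 10.9 and 9.42 TPM across KO libraries, against 13.96, 11.9 and 14.1 TPM across WT libraries, without overlap but with a gap of less than the spread of either group (log2 change -0.30, SE 0.21, adjusted p = 0.47). Ppt1, which removes palmitate from proteins, and Asah1, acid ceramidase, had log2 fold changes of -0.18 and 0.07 (adjusted p = 0.73 and 0.90), that of Asah1 being -0.06 under quantile normalization.

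Of the membrane proteins, Lamp1, which lines the lysosome, was the most abundant, at 227, 180.0 and 143 TPM across KO libraries, against 219, 182 and 198 TPM across WT libraries. Its groups overlapped (log2 change -0.14, SE 0.22, adjusted p = 0.74). Lamp2, its partner, which also serves chaperone-mediated autophagy, measured 74.6, 79.4 and 53.4 TPM across KO libraries, against 93.4, 87.6 and 93.7 TPM across WT libraries. Its groups did not overlap (log2 change -0.42, SE 0.21, adjusted p = 0.37).

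Npc1 and Npc2 pass cholesterol out of the lysosome, Npc2 in the lumen and Npc1 in the membrane. Npc1 measured 10.3, 10.4 and 3.01 TPM across KO libraries, against 4.29, 3.93 and 4.31 TPM across WT libraries. KO libraries 1 and 2 were above and KO library 3 below the wild-type range. The log2 ratio of KO to WT was 0.63 (SE 0.41, adjusted p = 0.45) in all libraries and 1.13 without KO library 3 (SE 0.14, adjusted p = 0.0012). Npc2 measured 30.3, 31.9 and 19.9 TPM across KO libraries, against 38.7, 32.4 and 34.7 TPM across WT libraries. It did not overlap in the lower direction, but KO library 2 was only just below WT library 2 (log2 change -0.38, SE 0.24, adjusted p = 0.44). The log2 fold change of Npc2 without KO library 3 was -0.17 (adjusted p = 0.33).

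Scarb2, which carries glucocerebrosidase to the lysosome, averaged 29.1 ± 12.2 TPM over KO libraries and 21.8 ± 3.14 TPM over WT libraries (SD, n = 3 each), with a log2 fold change of 0.31 (adjusted p = 0.63) and 0.70 without KO library 3 (SE 0.17, adjusted p = 0.014). Mcoln1, the cation channel through which lysosomes release calcium, showed a log2 change of 0.06 (adjusted p = 0.92). Tfeb itself measured 13.3, 14.2 and 6.54 TPM across KO libraries, against 7.99, 8.89 and 10.2 TPM across WT libraries. Libraries 1 and 2 of the knockout were above and library 3 below the wild-type range (log2 change 0.24, SE 0.31, adjusted p = 0.69). Without KO library 3 it was 0.56 (SE 0.15, adjusted p = 0.021), and 0.14 to 0.34 under the other scalings (adjusted p = 0.13 to 0.49). The 12 tested members with CACGTG in a promoter window had a median log2 fold change of -0.09, and the 17 tested members with a window and no match had -0.30.

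For the proton pump, the 9 tested V-ATPase members had log2 fold changes between -0.54 and 0.36 and a median of -0.12, and their summed level, which lacks Atp6v0c but for its 0.101 TPM in WT library 1, was 711, 751 and 520 TPM across KO libraries, against 749, 739 and 785.0 TPM across WT libraries. In the V0 sector, Atp6v0b, a proteolipid of the rotor ring, measured 138, 116 and 93.0 TPM across KO libraries, against 134, 138 and 134 TPM across WT libraries. KO library 1 was just above the wild-type range and the other KO libraries were below it (log2 change -0.24, SE 0.20, adjusted p = 0.54). Atp6v0d1, which joins the ring to the central stalk, showed a log2 change of 0.16 (adjusted p = 0.82).

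In the V1 sector, Atp6v1e1, a subunit of the peripheral stalk, was the most abundant, at 157, 243 and 121 TPM across KO libraries, against 223, 249 and 244 TPM across WT libraries. KO library 2 lay within the wild-type range (log2 change -0.52, SE 0.27, adjusted p = 0.38). Atp6v1b2, the B subunit used in most cells, was the least abundant, at 36.9, 32.3 and 17.3 TPM across KO libraries, against 23.6, 21.0 and 22.7 TPM across WT libraries. KO libraries 1 and 2 were above and KO library 3 below the wild-type range (log2 change 0.28, SE 0.30, adjusted p = 0.62). These positions were common, as 56.5% of all genes lay above every WT library in KO library 1 and 55.2% in KO library 2. In KO library 3, 66.9% lay below every WT library. Without KO library 3 the estimate for Atp6v1b2 was 0.60 (SE 0.14, adjusted p = 0.011), and 0.24 to 0.36 under the other scalings (adjusted p = 0.065 to 0.16). The catalytic subunit gene Atp6v1a, the central stalk gene Atp6v1d and the regulatory subunit gene Atp6v1h had log2 fold changes of -0.12, 0.17 and -0.38 (adjusted p = 0.78, 0.71 and 0.39).

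The ratio of Atp6v1e1 to Atp6v1a, 2 subunits that work in the same sector, was 3.32, 3.50 and 2.54 in the KO libraries and 3.99, 4.01 and 4.26 in the WT libraries. It was lower in all KO libraries (3.12 ± 0.511 against 4.09 ± 0.148, SD, n = 3 each, exact two-sided permutation p = 0.1, the smallest possible). This pair was chosen after its values were seen, so the p-value lends the difference no support. Of the accessory proteins, Atp6ap1, which helps to assemble the pump, measured 61.3, 47.3 and 68.2 TPM across KO libraries, against 94.0, 79.9 and 82.4 TPM across WT libraries. The groups did not overlap, and KO library 3 was the nearest to wild type. The log2 ratio of KO to WT was -0.54 (SE 0.21, adjusted p = 0.28), and without KO library 3 Atp6ap1 fell by 0.65 on the log2 scale (SE 0.16, adjusted p = 0.016). Atp6ap2, also known as the prorenin receptor, measured 47.8, 42.1 and 35.3 TPM across KO libraries, against 34.5, 25.5 and 37.4 TPM across WT libraries. Only KO library 3 overlapped the wild-type range (log2 change 0.36, SE 0.23, adjusted p = 0.44).

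Some V-ATPase subunits exist in a general and a cell-type form, and 15 further subunit genes were read for this. Atp6v1b1, the B subunit of acid-secreting cells such as intercalated cells of the kidney, measured 5.44, 3.75 and 4.96 TPM across KO libraries, against 7.03, 9.89 and 14.9 TPM across WT libraries. The groups did not overlap (log2 change -0.98, SE 0.30, adjusted p = 0.20, and -1.01 with adjusted p = 0.028 without KO library 3). The ratio of Atp6v1b2 to Atp6v1b1 was 6.78, 8.61 and 3.49 in the KO libraries and 3.35, 2.12 and 1.53 in the WT libraries, higher in all KO libraries (6.29 ± 2.59 against 2.33 ± 0.931, SD, n = 3 each, exact two-sided permutation p = 0.1). This ratio too was chosen after its values were seen, so its p-value is no support. Atp6v0a4, the usual partner of Atp6v1b1 in acid-secreting cells, was at or below 0.0705 TPM in every library. Of the 6 listed markers of proton-secreting ionocytes, which include Atp6v1b1 itself, 4 were tested and 0 passed in all libraries. Without KO library 3, Atp6v1b1 and Stap1 were lower (50%, against 11.7% of all genes). Foxi1 and Ascl3 were not called in that fit (adjusted p = 0.12 and 0.15 by limma). The summed level of the list was 18.3 to 56.4 TPM in the knockout and 54.1 to 78.1 TPM in wild type. Foxi1, their master regulator, was at 5.04, 7.03 and 13.8 TPM across KO libraries, against 8.96, 6.70 and 11 TPM across WT libraries. The part of these cells in the Atp6v1b1 value was not tested. Atp6v1g3, a G subunit of kidney, measured 9.04, 3.24 and 1.99 TPM across KO libraries, against 7.92, 6.91 and 6.12 TPM across WT libraries (log2 change -0.66, adjusted p = 0.45). Of the 12 tested genes among these subunits, 3 were higher and 1 lower without KO library 3 (25% and 8.33%, against 33.8% and 11.7% of all genes). With the other scalings 1 was higher and 3 to 4 lower (against 19.2 to 22% and 18.9 to 20.4% of all genes). The ratio of Atp6v0d1 to its cell-type form Atp6v0d2 overlapped between the groups (0.656 ± 0.204 against 0.687 ± 0.0826, exact p = 0.9).

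**Figure D4:**
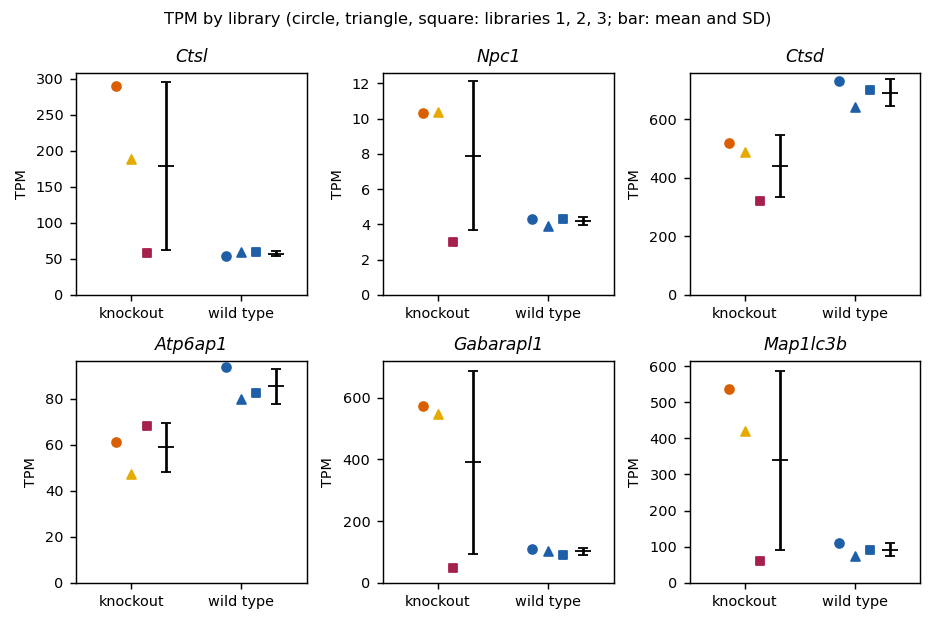
TPM of 4 members and 2 autophagy genes in each library, with knockout left and wild type right, and the mean and SD of each group beside the points. Ctsl, Npc1, Gabarapl1 and Map1lc3b are high in KO libraries 1 and 2 and not in KO library 3, whereas Ctsd and Atp6ap1 are lower than wild type in all KO libraries.

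The rest of the pathway was read from 6 lists of 129 genes, of which 121 were tested. In all libraries 0 of them passed (14 at an unadjusted p under 0.05, 11.6% against 15.4% of all genes). Without KO library 3, 46 were called higher and 9 lower (38.0% and 7.44%, against 33.8% and 11.7% of all genes). This split depended on the scaling. It was 36 higher and 20 lower under median-of-ratios scaling (against 22% and 19.2% of all genes), 29 and 27 under quantile normalization (against 19.2% and 20.4%), and 35 and 21 in the rescaling without the 50 most abundant genes (against 21% and 18.9%). The autophagy list had the largest share, with 17 of 28 genes higher and 0 lower without KO library 3 (60.7%, against 33.8% of all genes), and 13 to 16 higher and 0 to 2 lower under the other scalings. Its median log2 fold change was 0.79 without KO library 3 and 0.36 with it. Gabarapl1, which builds and fills autophagosomes, measured 575, 548 and 48.0 TPM across KO libraries, against 111, 104 and 89.3 TPM across WT libraries. Map1lc3b, the LC3 protein of the autophagosome membrane, measured 536, 421 and 60.0 TPM across KO libraries, against 109, 75.1 and 91.2 TPM across WT libraries. In both genes KO libraries 1 and 2 were above and KO library 3 below the wild-type range. Their log2 fold changes were 1.29 and 1.39 in all libraries (adjusted p = 0.46 and 0.39) and 2.46 and 2.37 without KO library 3 (adjusted p = 0.00026 and 0.00049).

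The relatives of Tfeb and the mTORC1 nutrient sensors gave 9 of 18 tested genes higher and 1 lower without KO library 3 (50% and 5.56%, against 33.8% and 11.7% of all genes), and 6 to 7 higher and 1 lower under the other scalings (against 19.2 to 22% and 18.9 to 20.4%). The largest log2 fold changes in all libraries were those of Tsc1, a brake on mTORC1, and Flcn, folliculin, which acts on the Rag GTPases. Tsc1 measured 13.3, 19.8 and 2.89 TPM across KO libraries, against 2.65, 3.74 and 3.17 TPM across WT libraries (log2 change 1.33, adjusted p = 0.32, and 2.05 with adjusted p = 0.00077 without KO library 3). Flcn measured 48.3, 47.3 and 12.4 TPM across KO libraries, against 13.1, 16.9 and 15.6 TPM across WT libraries (0.98, adjusted p = 0.37, and 1.6 with adjusted p = 0.00063). Among other lysosomal membrane proteins, 8 of 20 were higher and 1 lower without KO library 3 (40% and 5%), near the 33.8% of all genes that were higher, and 6 were higher and 4 lower under each other scaling. Sidt2, a nucleic acid transporter, measured 68.9, 85.1 and 25.4 TPM across KO libraries, against 21.2, 21.5 and 27.0 TPM across WT libraries (log2 change 1.17, adjusted p = 0.26, and 1.69 with adjusted p = 0.00073 without KO library 3). Slc17a5, the sialic acid exporter sialin, measured 76.2, 55.2 and 19.7 TPM across KO libraries, against 19.9, 17.6 and 19.8 TPM across WT libraries (1.16, adjusted p = 0.29, and 1.71 with adjusted p = 0.00073). In both genes KO library 3 was within the wild-type range.

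Among 33 other lysosomal hydrolases tested, 6 were higher and 5 lower without KO library 3 (18.2% and 15.2%, against 33.8% and 11.7% of all genes). Under the other scalings 4, 2 and 3 were higher (against 22%, 19.2% and 21% of all genes) and 9, 13 and 10 lower (against 19.2%, 20.4% and 18.9%). Ctsk, the collagen-degrading cathepsin of osteoclasts and fibroblasts, measured 5.28, 2.72 and 1.90 TPM across KO libraries, against 7.35, 8.80 and 6.15 TPM across WT libraries, without overlap (log2 change -1.04, SE 0.32, adjusted p = 0.20, and -0.79 with adjusted p = 0.039 without KO library 3). Hyal1, which digests hyaluronan, measured 11.6, 15.6 and 3.03 TPM across KO libraries, against 3.46, 4.62 and 3.22 TPM across WT libraries (log2 change 1.00, SE 0.50, adjusted p = 0.37). The value for Hyal1 without KO library 3 was 1.61 (adjusted p = 0.0012). Of the 10 genes of mannose 6-phosphate tagging and sorting, 3 were higher and 1 lower without KO library 3 (30% and 10%, near the 33.8% and 11.7% of all genes). With the other scalings 1 to 2 were higher and 2 to 4 lower (against 19.2 to 22% and 18.9 to 20.4% of all genes). Gnptab, which makes the tag, measured 11.5, 16.9 and 4.07 TPM across KO libraries, against 4.99, 5.58 and 4.85 TPM across WT libraries (log2 change 0.77, adjusted p = 0.41, and 1.29 with adjusted p = 0.0022 without KO library 3). Gga2, a sorting adaptor, measured 16.9, 15.1 and 12.3 TPM across KO libraries, against 9.40, 7.99 and 10.1 TPM across WT libraries, higher in all KO libraries (log2 change 0.63, SE 0.22, adjusted p = 0.25, and 0.75 with adjusted p = 0.0076 without KO library 3). Gga2 and Atg3 were the 2 of 121 tested genes of these lists with every KO library above every WT library (1.65%, against 5.42% of all genes).

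Markers of several other cell types were lower in the knockout, while the acinar and duct lists were mixed. The 14 listed acinar genes summed to 192794 to 240188 TPM in the knockout and 142922 to 162230 TPM in wild type. Pip and Prol1 held most of each sum, at 95125 and 144115 of the 240188 TPM in KO library 2, so the sum says little of the other genes. Of 12 tested acinar markers 2 were higher without overlap and 0 lower. The 10 duct markers had 5 positive and 5 negative estimates, and 4 were lower without overlap. Macrophages are rich in lysosomes, and 13 of their 19 tested markers were lower in every KO library than in every WT library (68.4%, against 15.6% of all genes), with a summed level of 287 to 440 TPM in the knockout and 668 to 758 TPM in wild type. None of the 20 listed markers in the table was at 0 in all libraries. Lyz2, the macrophage lysozyme, stood at 44.5, 48.3 and 38.3 TPM across KO libraries, against 87.6, 99.6 and 95.5 TPM across WT libraries, and the complement gene C1qa at 29.5, 35.3 and 30.1 TPM and at 33.9, 36.4 and 33.4 TPM in the same groups. Of 13 fibroblast markers 8 were lower without overlap (61.5%), with sums of 139 to 285 TPM in the knockout and 304 to 395 TPM in wild type, and of 10 endothelial markers 5 were (50%), with sums of 26.8 to 38.5 TPM in the knockout and 40.4 to 45.2 TPM in wild type. In the endothelial list 4 of 10, Pecam1, Cdh5, Esam and Vwf, had positive estimates, and the median of -0.34 was near that of the duct list. All 8 tested basal and myoepithelial markers, among them Trp63, Krt5 and Acta2, were lower without overlap and 2, Krt14 and Cnn1, passed the test in all libraries. The summed level of that list was 127 to 237 TPM in the knockout and 370 to 472 TPM in wild type. The part of these cells in the lower values of Ctsd, Ctsb, Lipa, Atp6ap1 and Ctsk was not tested. The labels do not say that replicates were separate mice, so the p-values measure the spread between these libraries.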

How the data were processed

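RNA-seq libraries from 3 p63 knockout and 3 wild-type submandibular gland preparations were compared. The authors deposited TPM values, that is, raw counts scaled to gene length and to the size of each library, per the labels. TopHat2 2.1.1, Bowtie2 2.2.6, featureCounts 1.5.1, DESeq2 1.20.0 and the mm9 genome are named in the submitters' processing notes, without roles. The annotation, gene lengths and strand setting are not given in the sources used here. Each column summed to 1000000, and depth is unknown, so no counting interval is given.

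From the TPM, log2(TPM + 1) went into limma 3.58.1 under R 4.3.3 (a linear model whose empirical Bayes step follows the mean-variance trend), for genes that reached 1 TPM in 3 or more libraries. Each adjusted p is two-sided, with Benjamini-Hochberg adjustment over all 11268 genes, and 0.05 was the threshold. Fold changes on this scale understate those of low genes. Replicates were numbered within a group, since the labels give no shared numbers. The procedure was tested on simulated data. Alternatives were other pseudocounts (0.1 and 0.5 TPM), filters (none and 5 TPM), scalings, moderation, array weights, a replicate block and leaving out each library. The fits that combine another scaling with leaving out knockout library 3 were added after seeing the data, as was the count of pathway genes under each alternative. The members, gene lists and tests were chosen with earlier results of these data known. Values per library are printed for members without overlap, for the most and least abundant member of each role and, in each pathway list, for the 2 genes with the largest change. Those of members whose call depends on knockout library 3, such as Ctsl, Npc1, Gaa and Tfeb, were added after their values were seen. Ratios between genes were chosen after the values were seen, 4 in all. Promoter sequences came from RefSeq on GRCm38.p6 and were matched by symbol, so their coordinates are not those of the mm9 files. Python 3.11.15 and matplotlib 3.10.9 made the figures.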

Additional observations from a re-analysis of the deposited data

How the results depend on the processing

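Of 591 values of single members under the alternatives set at the start, 546 kept their direction and their side of the threshold, 18 passed the threshold where they had not before (9 without KO library 3 and 9 with array weights), and 27 changed sign, all of them for genes that were not called. With all libraries, log2 fold changes of the other sign were found for Gaa (-0.0937), Asah1 (-0.0604), Mcoln1 (-0.10) and Neu1 (-0.16) under quantile normalization, for Neu1 (-0.0405) and Psap (-0.00985) under median-of-ratios scaling, for Neu1 (-0.0511) and Psap (-0.0172) in the rescaling without the 50 most abundant genes, and for Ctsh (0.0248), Naglu (0.16) and Atp6v1a (0.0370) with array weights. Leaving out 1 library at a time, the log2 fold change ranged from -0.16 to 0.51 for Gaa, -0.28 to 0.0878 for Naglu, -0.20 to 0.29 for Neu1, -0.21 to 0.33 for Psap, -0.10 to 0.32 for Asah1, -0.31 to 0.0220 for Lamp1, -0.19 to 0.31 for Mcoln1 and -0.14 to 0.53 for Atp6v0d1. Without KO library 3 and with quantile normalization, Neu1 was at -0.12, Asah1 at -0.0427 and Mcoln1 at -0.0903. The cause of these changes was not tested.

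The members called numbered 0 under every alternative set at the start except array weights (9) and the fit without KO library 3 (9), for a range of 0 to 9 when 1 library was left out. They numbered 13, 13 and 14 without that library under median-of-ratios scaling, quantile normalization and rescaling without the 50 most abundant genes. The pathway genes called numbered 0 with all libraries and 54 with array weights, ranged from 0 to 55 with 1 library left out, and numbered 56 under each of these 3 scalings without KO library 3, with splits of 36 higher and 20 lower, 29 and 27, and 35 and 21, where the TPM scaling gave 46 and 9. Over all genes the 44 calls became 25 with a pseudocount of 0.1 TPM, 11 with no filter, 29 with the 5 TPM filter, 72 under quantile normalization and 4822 with array weights. With 1 library left out they ranged from 0, without WT library 2 or 3, to 5127, without KO library 3, and they numbered 4642, 4465 and 4498 without KO library 3 under the 3 other scalings. The members' median of -0.18 stayed negative under every alternative. It was -0.03 without KO library 3, -0.04 with array weights and -0.30 without KO library 3 under quantile normalization. These moves were smaller than the SD of the KO library medians, but that is a weak standard, since KO library 3 widens it.

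The replicate block, for libraries whose index numbers in the titles neighbour each other, called 31 genes and 0 members. Deviations from the group means correlated at 0.17, 0.23 and 0.08 in these pairs, so the numbers were not taken to pair the samples, though each library correlated best with its neighbour, which is a hint from the data and not the design. TPM keeps no depth, so the precision of low members such as Gla and Lipa cannot be told from the files.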

Other observations

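A further lysosomal hydrolase, Naaa, had a lower adjusted p than any of the 35 tested members, and it was picked after its values were seen. Naaa, an acid amidase that breaks down the lipid amide palmitoylethanolamide, measured 1.56, 1.23 and 1.55 TPM across KO libraries, against 3.97, 3.35 and 3.76 TPM across WT libraries (log2 change -0.94, SE 0.19, adjusted p = 0.077 by limma). Every KO library lay below every WT library, and KO library 3 lay with the other KO libraries. Without that library the adjusted p was 0.0035 for Naaa. Stap1, a listed ionocyte marker, measured 3.78, 5.08 and 8.28 TPM across KO libraries, against 13.5, 14.7 and 19.5 TPM across WT libraries (log2 change -1.37, SE 0.30, adjusted p = 0.092, and -1.63 with adjusted p = 0.0012 without KO library 3). Cd163, a scavenger receptor of macrophages, was higher in every KO library, at 7.62, 6.32 and 4.54 TPM across KO libraries, against 2.14, 3.06 and 4.13 TPM across WT libraries (log2 change 0.81, SE 0.28, adjusted p = 0.24, and 0.98 with adjusted p = 0.012 without KO library 3).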
